A study of Homo sapiens with 8 samples.

Results

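RBM6, RBM5 and RBM10 are paralogous RNA-binding proteins, and their mRNA levels are described here in MCF10A-Hras cells with and without a targeted RBM6 gene. The genes were chosen by symbol, and 3 of the 58233 genes in the count table are members, each with 1 identifier. MCF10A-Hras cells derive from MCF10A, a human mammary epithelial line that does not form tumours, and carry the H-Ras oncogene, and all libraries share this background. Control (WT) and RBM6-KO cells were sequenced untreated or 12 h after 5 Gy of X-ray ionizing radiation (IR), which gave 4 groups of 2 biological replicates, A and B. The RBM6-KO cells are 1 clone, grown from a single sorted cell, so that an effect of the RBM6 lesion and a property of that clone cannot be told apart. The comparisons ask whether RBM6 mRNA was lower in the knockout clone, whether its paralogs were higher there, and whether the 3 mRNAs changed after IR.

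The 3 proteins carry RNA recognition motifs, an OCRE domain and a G-patch, and they act as regulators of alternative splicing. RBM5 and RBM10 are found in early spliceosomes and influence whether exons are kept or skipped, and RBM10 is known to promote skipping of exons in its own pre-mRNA and in that of RBM5. RBM6 and RBM5 lie next to each other in the chromosome band 3p21.31, a region often lost in lung and other cancers, whereas RBM10 is X-linked and recurrently mutated in lung adenocarcinoma.

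On GRCh38 with the GENCODE v44 annotation, RBM6 (ENSG00000004534) spans chromosome 3 from 49940007 to 50100045 and RBM5 (ENSG00000003756) spans chromosome 3 from 50088919 to 50119021, both on the plus strand. RBM10 (ENSG00000182872) spans chromosome X from 47145221 to 47186813, also on the plus strand. The longest coding transcripts are 3630 bases for RBM6, 3177 for RBM5 and 3201 for RBM10, and the union of all annotated exons is 7299, 10357 and 3537 bases. The lesion in the knockout clone was made with a nickase form of Cas9 (Cas9-D10A) and a pair of guides in RBM6 exon 3, a coding exon of 1279 bases at 49967470 to 49968748. The targeted sequence is shown because 83.7% of the 3630-base RBM6 transcript lies after it and would still give reads from a transcript with a small exon 3 lesion. The first 2 lines give the guide targets of 20 bases from the hg38 genome in lower case with the adjacent PAM in capitals, and the last line gives the plus strand across both of them with the guide targets in capitals.
Minus-strand guide, chr3:49967819-49967838: ccacccctatagtccataggTGG
Plus-strand guide, chr3:49967851-49967870: tatggattatagaggtagggAGG
Both sites, chr3:49967816-49967873, plus strand: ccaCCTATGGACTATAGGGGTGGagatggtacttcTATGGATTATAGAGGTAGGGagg
The guide targets face outwards with 12 bases between them, and each matched 1 site on chromosome 3. Gene counts do not read the lesion itself, so a normal RBM6 count is no check of the knockout label.

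Library totals on genes ran from 15355281 to 29832009, and 3 counts correspond to 0.101 to 0.195 CPM, the count scaled to the size of the library. The members had 683 to 2377 counts per library. The fewest RBM6 counts, 692 in RBM6-KO after IR, replicate B, have an exact 95% Poisson interval of 641 to 746, which covers counting error only. The libraries behaved as their treatment labels say for CDKN1A, the p53-induced cell cycle inhibitor, which went from 459 ± 14.8 to 1610 ± 155 normalized CPM in irradiated controls, and in the knockout from 393 ± 13.8 to 1609 ± 2.90 (SD, n = 2 libraries). MDM2 and GDF15, 2 other p53 targets, were also higher in each irradiated library, at 247 to 332 against 98.9 to 137 and at 302 to 406 against 39.3 to 67.0 normalized CPM. APBB1, the Fe65 gene whose splicing RBM6 regulates, had 93 to 171 counts in the 4 control libraries and 4 to 7 in the 4 RBM6-KO libraries. All 8 breast epithelial markers (KRT5, KRT14, KRT17, KRT18, CDH1, EPCAM, TP63 and ITGA6) were detected. Their sum was 2028 to 2309 CPM in untreated and 2496 to 2618 in irradiated control libraries. In the corresponding RBM6-KO libraries it was 1961 to 2224 and 1796 to 1838. Averaged over treatments, EPCAM (-1.80), CDH1 (-0.67) and KRT18 (-0.59) were lower and KRT14 (0.77) was higher on the log2 scale in RBM6-KO (adjusted p = 4.23e-05, 0.0392, 0.0397 and 0.00813 from edgeR). Of the markers of other cell types only DCN, COL1A1, PDGFRB, CD14 and PECAM1 reached 10 counts in any library. The 5 fibroblast markers summed to 80.6 to 112.7 CPM in control and 113.7 to 209.2 in RBM6-KO libraries and this sum was higher after IR in each genotype. Most of the sum was DCN, which was higher in RBM6-KO (averaged log2 fold change 1.01, adjusted p = 0.000514 from edgeR), whereas COL1A1 was lower there (-0.95, adjusted p = 0.00450 from edgeR) and had lower means after IR, 11.8 against 13.0 normalized CPM in controls and 5.25 against 7.78 in the knockout. The part of these markers in the RBM6 values was not tested. The 4 immune markers summed to 11.8 to 18.9 CPM in control and 3.74 to 5.53 in RBM6-KO libraries, with CD3E at 0 counts throughout, and the 3 endothelial markers to 1.31 to 2.45 and 3.46 to 6.06.

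RBM10 was the most abundant of the 3 mRNAs per length. Per kilobase of the longest coding transcript, untreated control cells held 32.3 normalized CPM of RBM10, 18.7 of RBM6 and 17.5 of RBM5. RBM6 and RBM5 were too close to be ordered on that scale, since one RBM5 library lay above one RBM6 library there. Per kilobase of all annotated exons the values were 29.3, 9.30 and 5.38, and on this scale RBM6 lay above RBM5 in both libraries, so the order of RBM6 and RBM5 depends on which annotated bases are counted. On the scale of the longest coding transcript, RBM6 in untreated control cells lay above 73.4% of 12774 expressed genes, RBM5 above 72.1% and RBM10 above 83.1%. After IR in RBM6-KO cells the RBM6 position was lower, at 60.5%, while RBM5 stood at 70.9% and RBM10 at 81.2%.

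**Figure D1:**
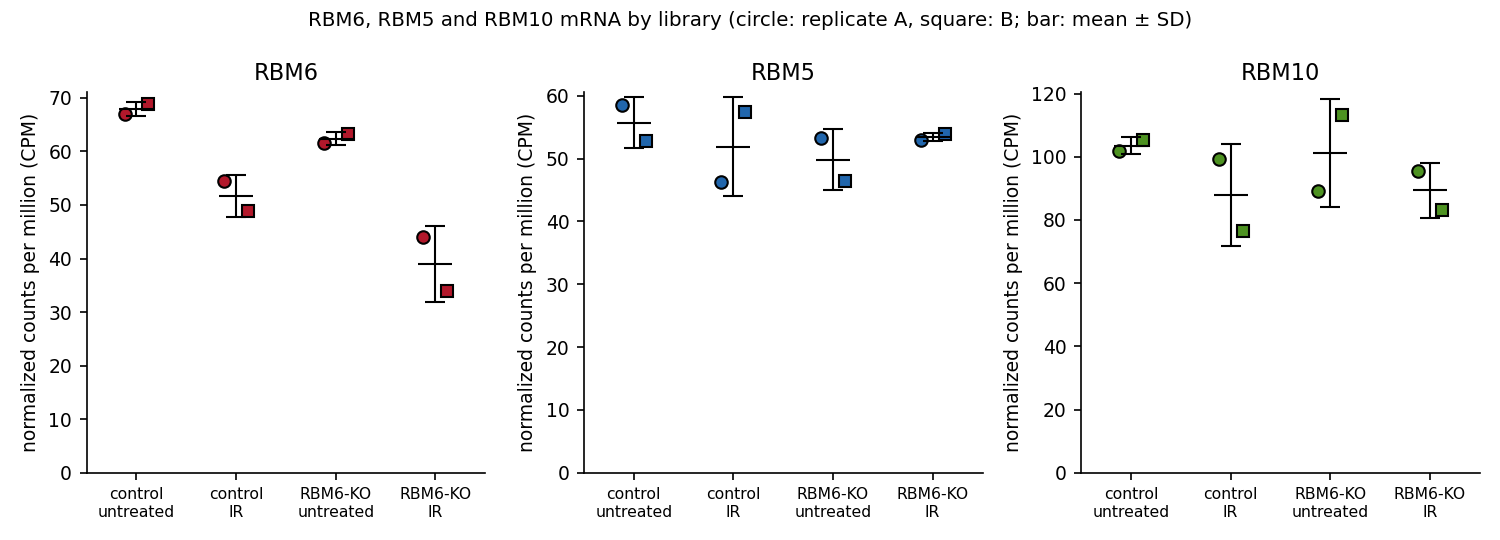
Normalized CPM (y axis, from 0) of RBM6, RBM5 and RBM10 in each library of the 4 groups (x axis). Circles are replicate A, squares replicate B, and bars the mean ± SD of 2 libraries. The 4 irradiated RBM6 values, 33.9 to 54.5, lie below the 4 untreated ones, 61.5 to 68.8, while RBM5 and RBM10 overlap.

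RBM6 mRNA was still present in the knockout clone at close to the control level. Without IR, control cells had 66.9 and 68.8 normalized CPM (replicates A and B) and RBM6-KO cells 61.5 and 63.2. After IR, control cells had 54.5 and 48.9 and RBM6-KO cells 44.01 and 33.9. Within each treatment both knockout libraries lay below both controls, as did 23.7% of genes untreated and 19.9% after IR.

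The difference did not pass the test in either treatment, although after IR it did pass in 1 alternative, a fit with the replicate letter as a block (-0.41, adjusted p = 0.0169 from edgeR). Each p-value given here is two-sided and adjusted over all genes tested by the Benjamini-Hochberg method, from edgeR's quasi-likelihood test unless another test is named, and intervals are 95% intervals for that gene alone. In untreated cells the RBM6-KO level was 0.910 of control (interval 0.735 to 1.13), or -0.14 ± 0.15 (standard error) on the log2 scale (adjusted p = 0.712 from edgeR). None of the 3 members was called there, against 6.12% of all genes. After IR the log2 fold change was -0.40 (standard error 0.20, interval -0.86 to 0.06, adjusted p = 0.535 from edgeR), again with no member called, against 1.21% of all genes. That value was -0.61 without RBM6-KO IR replicate A and -0.23 without replicate B. Averaged over both treatments it was -0.27 (standard error 0.11, interval -0.51 to -0.02), with an unadjusted p = 0.0380 and an adjusted p = 0.188 from edgeR, and no member was called, against 8.68% of all genes. Leaving out 1 library moved it between -0.36 and -0.18, again with RBM6-KO IR replicates A and B. An unchanged level is therefore not shown, only that a difference was not detected at this replication. In bulk RNA, less RNA per cell and fewer cells that express the gene cannot be told apart.

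RBM5, the neighbouring paralog, showed no rise in the knockout clone that passed the test. Untreated control cells had 58.6 and 52.8 normalized CPM and untreated RBM6-KO cells 53.3 and 46.5. After IR the values were 46.3 and 57.5 in control and 52.9 and 53.9 in RBM6-KO cells. Each pair of groups overlapped. The log2 fold change in RBM6-KO against control was -0.17 untreated (interval -0.51 to 0.16, adjusted p = 0.646 from edgeR) and 0.05 after IR (interval -0.38 to 0.47, adjusted p = 0.976 from edgeR). Averaged over treatments it was -0.06, with an interval of -0.31 to 0.19, whose upper end is a 1.14-fold level.

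RBM10, the X-linked paralog, showed none either. Without IR its values were 101.7 and 105.3 normalized CPM in control and 89.2 and 113.2 in RBM6-KO cells, where the knockout libraries enclosed both controls. After IR they were 99.4 and 76.5 in control and 95.5 and 83.2 in RBM6-KO cells, where the controls enclosed the knockout. The log2 fold change was -0.05 untreated (interval -0.36 to 0.27, adjusted p = 0.915 from edgeR) and 0.03 after IR (interval -0.40 to 0.46, adjusted p = 0.984 from edgeR). The average over treatments was -0.005 (interval -0.27 to 0.26), whose upper end is a 1.20-fold level. After IR alone the upper end was a 1.38-fold level. The averaged value was higher with the trend on GC content and length removed, as given below, so the 1.20-fold end holds for the main fit only.

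The summed level of the 3 mRNAs showed no gain in the knockout. This sum restates the values above, includes the targeted RBM6 mRNA and is not scaled to length. Without IR it was 227 ± 0.174 normalized CPM in control and 213 ± 13.4 in RBM6-KO cells. After IR it was 192 ± 12.3 in control and 182 ± 15.2 in RBM6-KO cells (SD, n = 2 libraries each).

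**Figure D2:**
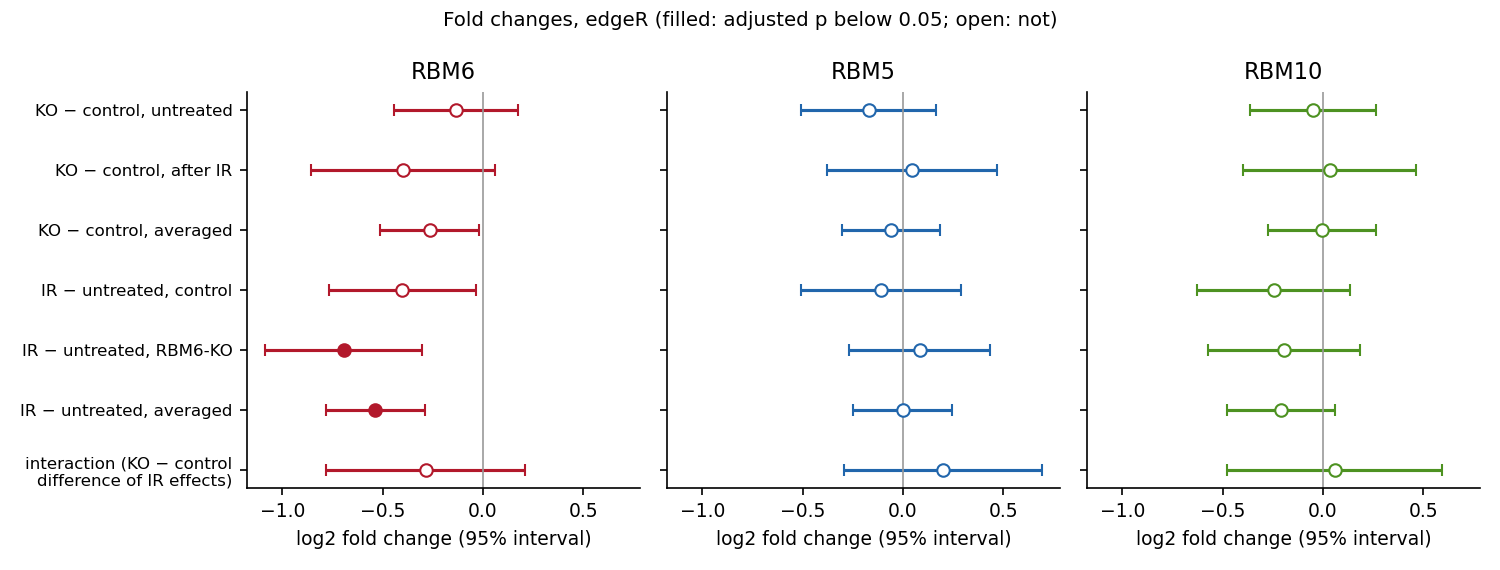
Log2 fold changes (x axis) with 95% intervals from edgeR for RBM6, RBM5 and RBM10 in 7 comparisons (y axis). Filled points have an adjusted p below 0.05. RBM6 is filled for IR in RBM6-KO cells (-0.69) and for IR averaged over genotypes (-0.54), and every interval of RBM5 and RBM10 covers 0.

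After IR, RBM6 mRNA fell. Every irradiated library, at 33.9 to 54.5 normalized CPM, lay below every untreated one, at 61.5 to 68.8, as did 11.8% of all genes. The group means went from 67.9 ± 1.35 to 51.7 ± 3.95 in controls, and in the knockout from 62.4 ± 1.18 to 39.0 ± 7.16 (SD, n = 2 libraries). Averaged over both genotypes in all 8 libraries, RBM6 fell by 31.0%, or -0.54 on the log2 scale (standard error 0.11, interval -0.78 to -0.29, adjusted p = 0.00871 from edgeR). RBM6 was 1 of 3 members called there. The IR response was broad, with 28.4% of all genes called and 13.5% called lower, and by its p RBM6 stood at position 1183 of the 16549 genes. The call held with each library left out in turn, with log2 fold changes of -0.63 to -0.44.

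Within single genotypes the evidence was thinner. In RBM6-KO cells the RBM6 log2 fold change after IR was -0.69 (standard error 0.17, interval -1.09 to -0.30), and its adjusted p = 0.0498 from edgeR lay just under the threshold. It was 1 of 3 members called, against 5.67% of all genes and 3.23% called lower. The call was lost without either untreated RBM6-KO library (adjusted p = 0.0523 without replicate A and 0.186 without B, from edgeR), although the log2 fold changes of -0.70 and -0.67 were about as large, and without RBM6-KO IR replicate B, where the log2 fold change was -0.50 (adjusted p = 0.310 from edgeR). It was also lost with the replicate letter as a block (-0.71, adjusted p = 0.0924 from edgeR). In control cells the log2 fold change was -0.40 (standard error 0.17, interval -0.77 to -0.04), which did not pass (adjusted p = 0.167 from edgeR), and no member was called, against 5.72% of all genes. Without control IR replicate A the RBM6 value was -0.47, and without replicate B it was -0.33.

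The fall was numerically deeper in the knockout clone, but the test of that difference did not pass. The RBM6 interaction was -0.29 (standard error 0.22, interval -0.78 to 0.21), with an unadjusted p = 0.229 and an adjusted p = 0.99998 from edgeR. It was -0.48 without RBM6-KO IR replicate A and -0.11 without replicate B. No gene was called in that interaction (0% of 16549 genes from edgeR, and 0 from DESeq2), while 306 genes had an unadjusted p under 0.05 in edgeR. The RBM5 interaction was 0.20 (interval -0.29 to 0.69) and that of RBM10 was 0.06 (interval -0.48 to 0.59).

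RBM5 stayed within a narrow range over the same libraries. Its group means were 55.7 ± 4.09 and 51.9 ± 7.90 normalized CPM in control cells before and after IR, and 49.9 ± 4.80 and 53.4 ± 0.698 in RBM6-KO cells (SD, n = 2 libraries). The averaged IR log2 fold change was -0.0006 (interval -0.25 to 0.25, adjusted p = 0.998 from edgeR). This interval and that of RBM6, -0.78 to -0.29, do not overlap. Between its lowest and highest library RBM5 moved by 0.34 on the log2 scale, and 8.11% of 9260 expressed genes moved by less, whereas RBM6 moved by 1.02 and RBM10 by 0.56. The median gene moved by 0.74.

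RBM10 was lower after IR in its means, but with wide spread. They were 103.5 ± 2.57 and 88.0 ± 16.2 normalized CPM in control cells before and after IR, and 101.2 ± 17.0 and 89.3 ± 8.73 in RBM6-KO cells (SD, n = 2 libraries). The averaged log2 fold change of -0.21 (interval -0.48 to 0.06) did not pass (adjusted p = 0.212 from edgeR). In control cells the value of -0.25 rested on replicate B after IR, whose 76.5 normalized CPM was the lowest of all 8 libraries. Without that library it was -0.07, and without replicate A it was -0.43.

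Ratios of counts within a library do not depend on how the libraries are scaled. Without IR, RBM6 counts per RBM5 count were 1.14 and 1.30 in control and 1.16 and 1.36 in RBM6-KO cells. After IR they were 1.18 and 0.852 in control and 0.831 and 0.629 in RBM6-KO cells. The untreated genotypes overlapped, and both irradiated knockout libraries were below every other library. RBM6 counts per RBM10 count were 0.658 and 0.653 in controls without IR and 0.548 and 0.639 with it. In RBM6-KO cells they were 0.690 and 0.558 without IR and 0.461 and 0.408 with it. In each genotype both irradiated libraries lay below both untreated ones on this ratio. For the levels of single genes, the same held for 27.8% of genes in control and 29.6% in RBM6-KO cells. Such a share was not computed for ratios.

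**Figure D3:**
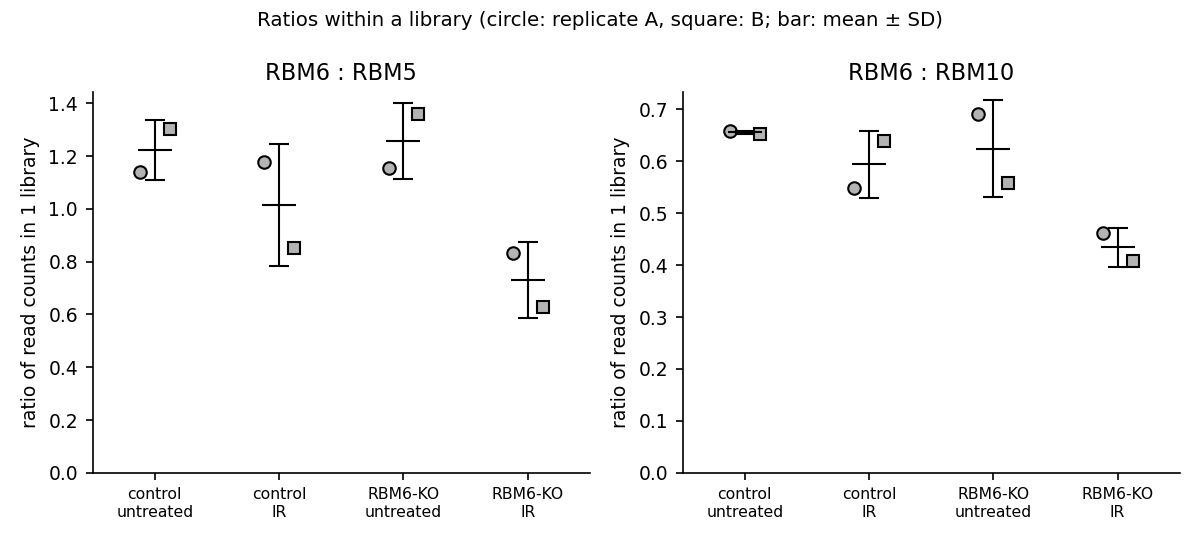
Ratio of RBM6 counts to RBM5 counts (left) and to RBM10 counts (right) within each library (y axes, from 0) for the 4 groups (x axis). Circles are replicate A, squares replicate B, and bars the mean ± SD of 2 libraries. Both ratios are lowest in the irradiated RBM6-KO libraries, at 0.629 and 0.831 for RBM5 and at 0.408 and 0.461 for RBM10.

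Reads of overlapping genes limit how cleanly the 3 counts can be read. The annotated RBM6 span runs 11127 bases into RBM5 because 1 of its 20 transcripts, annotated for nonsense-mediated decay, shares 456 exonic bases with RBM5, or 6.25% of RBM6 and 4.40% of RBM5 exonic bases. RBM5-AS1, on the opposite strand, overlaps 9.72% of RBM5 exonic bases and had 1 to 11 counts per library. At the other end of RBM5, SEMA3F-AS1 overlaps 7.73% and had 7 to 26 counts. The RBM10 start overlaps 246 exonic bases of NDUFB11, a respiratory complex I subunit on the opposite strand, or 6.96% of RBM10. NDUFB11 had 1425 to 2117 counts and followed RBM10 closely over the 8 libraries (r = 0.96 on the log2 scale, the 118th highest of 9259 genes). The strand setting of the counting is not given in the sources used here, so antisense reads in these overlaps cannot be told apart.

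The genes whose pattern over the 8 libraries was most like that of each member were named by the highest Pearson r of log2 normalized CPM, over 9259 other genes with a mean of at least 10 CPM. For RBM6 they were ZMIZ2 (r = 0.990), CROCC (0.984) and ANO9 (0.981). After centring, ZMIZ2 differed from RBM6 by a root mean square of 0.05 on the log2 scale, CROCC by 0.06 and ANO9 by 0.24. Between RBM6 and RBM10 this difference was 0.25, so a high r does not mean changes of equal size. For RBM5 they were TADA1 (0.938), NHLRC3 (0.902) and MBTD1 (0.899). For RBM10 they included NDUFS6 (0.997) and NUCB1 (0.994). Among the members, r was 0.64 for RBM6 with RBM10, -0.11 for RBM6 with RBM5 and -0.55 for RBM5 with RBM10. These values are descriptions over n = 8 libraries that share depth and base composition effects as well as treatment.

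The GC content of a gene moved with its fold change in these libraries, with Spearman correlations across genes of -0.29 and -0.31 for knockout against control and -0.26 and -0.24 for IR against untreated. The GC content, taken from the longest transcript of a gene, is 46.5% for RBM6, 44.9% for RBM5 and 60.6% for RBM10. With the trend on GC content and length removed, the averaged IR log2 fold change was -0.71 for RBM6, -0.19 for RBM5 and 0.002 for RBM10, so RBM6 remained lower and RBM10 lost its lower mean. The averaged knockout value of RBM10 became 0.17.

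The other genes of the pathway were taken from lists of early splice site recognition factors, G-patch proteins and RBM-named genes, which share RBM17 and RBM39. In untreated RBM6-KO against control cells, 1 of 24 genes of the U2 snRNP and 3′ splice site list rose, U2SURP, an SR-related U2 snRNP-associated protein, from 136.0 and 83.9 to 172.0 and 204.2 normalized CPM (log2 fold change 0.76, adjusted p = 0.0174 from edgeR). None of the 19 other G-patch genes passed. Of 37 tested RBM-named genes only RBMS1, a single-stranded nucleic acid-binding protein, rose, from 78.4 and 60.0 to 97.7 and 110.8 normalized CPM (log2 fold change 0.58, adjusted p = 0.0358 from edgeR). Over all genes 6.12% were called in this comparison, so these counts are no higher than the background. The list medians were 0.01, 0.03 and 0.08, beside 0.01 over all genes. After IR no gene of these 3 lists passed between RBM6-KO and control, against 1.21% of all genes, and the medians were 0.0009, -0.03 and 0.10, beside 0.02 over all genes.

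Genes of these lists changed in both directions after IR. Averaged over genotypes, 7 of 24 genes of the U2 snRNP and 3′ splice site list fell and 2 rose, 4 of 19 other G-patch genes fell and 1 rose, and 4 of 37 RBM-named genes fell and 3 rose, against 13.5% of all genes called lower and 14.9% called higher. The medians were -0.06, -0.08 and 0.02, beside 0.01 over all genes, with log2 fold changes in both directions in each list. RBM25, a splicing regulator associated with the U1 snRNP, fell in both genotypes, from 200.3 ± 48.2 to 82.0 ± 4.78 normalized CPM in controls (log2 fold change -1.30, adjusted p = 0.00489 from edgeR), and in the knockout from 294.0 ± 103.3 to 106.4 ± 43.3 (log2 fold change -1.48, adjusted p = 0.0294 from edgeR).

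SF3A2, a U2 snRNP subunit, also fell in both, with log2 fold changes of -0.73 in control and -0.91 in RBM6-KO cells (adjusted p = 0.0482 and 0.0409 from edgeR). GPATCH4, a nucleolar G-patch protein, fell by 0.90 and 1.09 on the log2 scale (adjusted p = 0.0327 and 0.0391 from edgeR). U2AF1, which recognizes the AG of the 3′ splice site, passed in control cells at -1.03 (adjusted p = 0.0414 from edgeR) and was at -0.84 in RBM6-KO cells (adjusted p = 0.0725 from edgeR), but the genome build holds a near-identical copy, so that its count is uncertain. In RBM6-KO cells DDX46, a helicase of the U2 snRNP, passed at -0.97 and SUGP2, a G-patch protein, at -0.65 (adjusted p = 0.0391 for each from edgeR), and in control cells they were at -0.71 and -0.53 (adjusted p = 0.0578 and 0.0811 from edgeR). RBM12B was the 1 gene of these lists that passed upwards within a genotype after IR, at 0.93 in RBM6-KO cells (adjusted p = 0.0498 from edgeR), with 0.67 in control cells (adjusted p = 0.139 from edgeR).

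**Figure D4:**
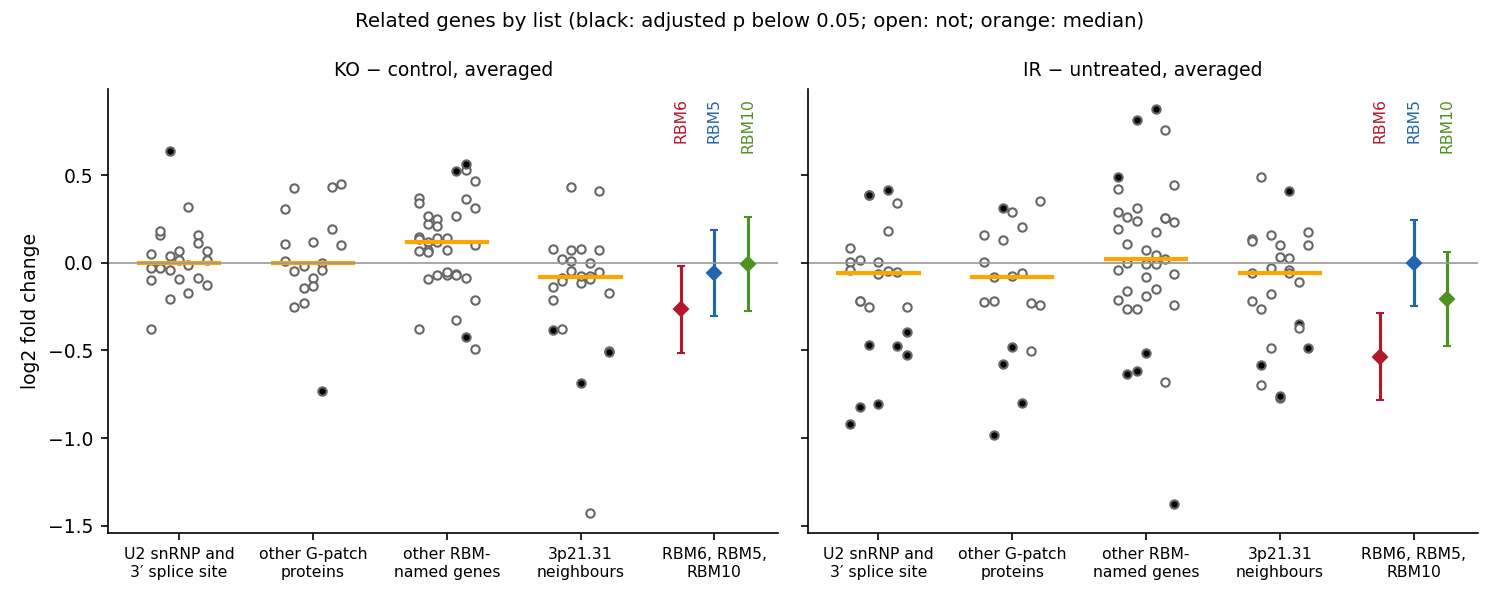
Log2 fold changes (y axis) of the tested genes of 4 lists and of RBM6, RBM5 and RBM10 (diamonds, with 95% intervals), for RBM6-KO against control (left) and IR against untreated (right), each averaged over the other factor. Black points have an adjusted p below 0.05, open points do not, and orange lines are list medians. RBM6 at -0.54 lies among the lower values after IR, above RBM25 at -1.38.

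Of 5 genes whose splicing has been tied to members of this family (FAS, NUMB, CASP2, CFLAR and APBB1), only APBB1 passed between genotypes. Over all genes 6.12% were called in untreated and 1.21% in irradiated cells. The study picked APBB1 as an RBM6 target from these same libraries, so its call is not independent of its place on the list. APBB1 fell by 4.14 on the log2 scale in untreated and by 4.87 in irradiated RBM6-KO cells (adjusted p = 8.02e-06 and 0.00505 from edgeR). FAS, the death receptor, rose after IR by a log2 fold change of 1.03 in control and 0.93 in RBM6-KO cells (adjusted p = 0.0202 and 0.0262 from edgeR). Its values were 22.5 and 19.1 normalized CPM in untreated and 37.7 and 47.7 in irradiated control cells, and 23.8 and 19.8 against 39.8 and 44.6 in RBM6-KO cells. Counts per gene do not show which isoforms were made.

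Genes around RBM6 and RBM5 on 3p21.31 were read to see whether the band as a whole was lower in the clone. In untreated cells none of 26 tested neighbours passed, against 6.12% of all genes, 17 lay below 0, and the median log2 fold change was -0.13, beside 0.01 over all genes. After IR none of 25 passed, against 1.21% of all genes, and the median was -0.04, beside 0.02 over all genes. Averaged over treatments, 3 of 26 were lower, against 5.46% of all genes called lower, and none was higher, against 3.22% called higher, and these 3 are named after their values were seen. SEMA3F, a secreted semaphorin, had 119.1 ± 4.46 normalized CPM in control and 87.5 ± 2.06 in RBM6-KO cells without IR (averaged log2 fold change -0.51, adjusted p = 0.00817 from edgeR). UBA7, the ISG15-activating enzyme, changed by -0.68 and MST1R, a receptor tyrosine kinase, by -0.39 on the same scale (adjusted p = 0.0297 and 0.0444 from edgeR). SEMA3F starts 215 kb above the RBM6 start and UBA7 and MST1R start 135 and 53.0 kb below it, while RBM5, TRAIP and MON1A in the same interval had averaged values of -0.06, 0.02 and 0.07.

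After IR, the neighbours did not follow RBM6 as a block. Averaged over genotypes 5 of 26 fell and 1 rose, against 13.5% of all genes called lower and 14.9% called higher. The median was -0.06, beside 0.01 over all genes. RASSF1, a tumour suppressor of the same band, passed within RBM6-KO cells, where it went from 19.2 ± 0.519 to 10.7 ± 1.92 normalized CPM (log2 fold change -0.87, adjusted p = 0.0441 from edgeR). In control cells it went from 17.1 ± 0.450 to 10.8 ± 1.85 normalized CPM (-0.67, adjusted p = 0.103 from edgeR).

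**Figure D5:**
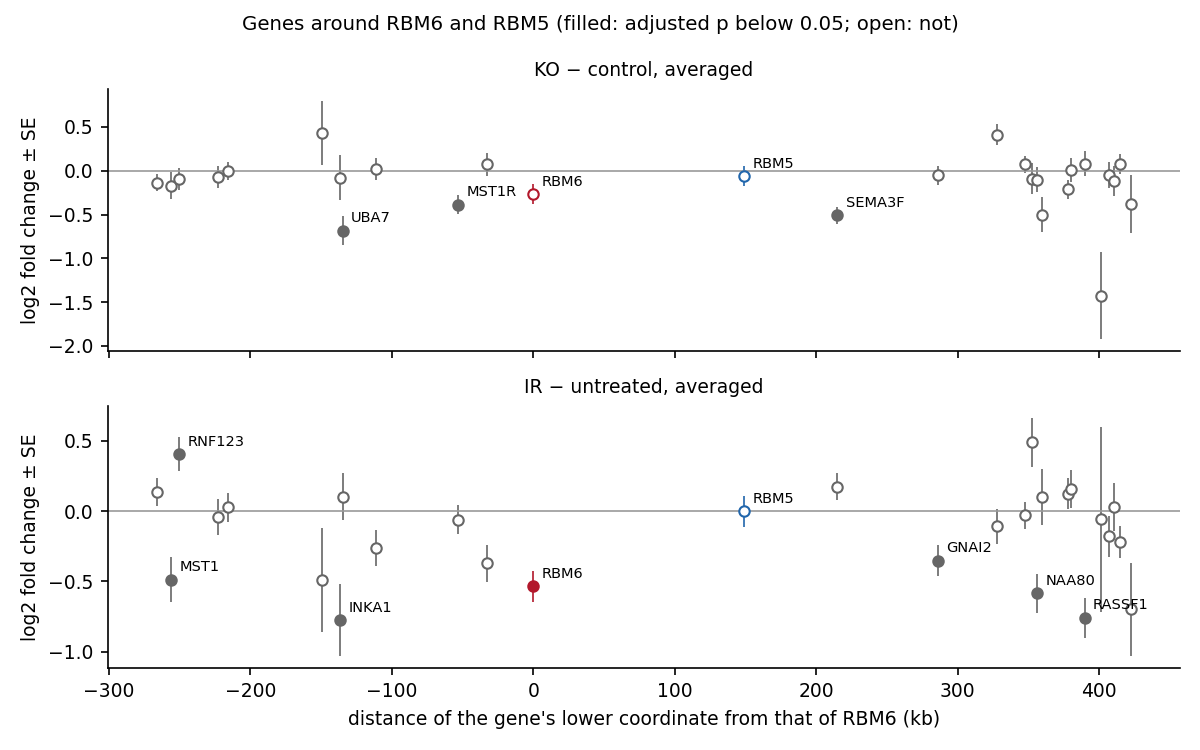
Log2 fold changes with standard errors (y axis) of RBM6, RBM5 and tested 3p21.31 neighbours against the distance of each gene's lower coordinate from that of RBM6 in kb (x axis), for RBM6-KO against control (top) and IR against untreated (bottom), both averaged. Filled points have an adjusted p below 0.05. Filled neighbours at -0.39 to -0.68 (top) stand between open ones near 0, while 18 of 26 neighbours lie below 0 and 8 above. Open points also reach -1.43 (ZMYND10) and 0.43 (CDHR4). RBM6 at -0.54 and RBM5 at -0.0006 differ after IR, although their lower coordinates are 149 kb apart and their annotated spans overlap.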

How the data were processed

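RNA-seq libraries were prepared by the authors with a TruSeq mRNA kit. The submitters' processing notes list STAR, DESeq2 and hg38. The authors deposited raw counts per Ensembl gene in 1 table, without normalization. The counting tool, annotation and strand setting are not given in the sources used here. Symbols and positions came from GENCODE v44, which held 57392 of 58233 identifiers. Guide sites were located by exact match of the study's oligos to hg38, and the printed bases are those of the genome.

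Counts were tested in R 4.3.3 with edgeR 4.0.16 (TMM, filterByExpr, quasi-likelihood test, two-sided, adjusted p under 0.05). Each pairwise comparison used its own 4 libraries, and the interaction and averages used all 8. These comparisons share libraries, so they are not independent of each other. Normalized CPM are the counts scaled to the TMM-adjusted library total. The Poisson interval and the limit of 3 counts cover counting error only. The intervals of the fold changes rest on edgeR's standard errors, which include the spread between replicates. Alternatives used DESeq2 1.42.0, other scalings, other filters, a replicate block, the removal of each library, and a lowess trend on GC content and length. The tests were run on simulated data with 200 changed genes. The members and lists were chosen with earlier results of these data known. Named genes were the members, genes overlapping them, up to 4 list genes with the greatest change per list and pairwise comparison among those that passed, 3 most alike genes per member (of which 1 is not reported here), and CDKN1A, MDM2, GDF15 and APBB1 as checks. The replicate letters are not stated to mark a shared culture or day.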

Additional observations from a re-analysis of the deposited data

How the results depend on the processing

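Of the 3 members' fold changes in 7 comparisons, most kept their direction and their side of the threshold. The RBM6 call for IR averaged over genotypes held under other scalings, filters, DESeq2 and the replicate block, with log2 fold changes of -0.59 to -0.51. With the replicate letter as a block, RBM6 in RBM6-KO against control after IR passed (-0.41, adjusted p = 0.0169 from edgeR) and RBM6 after IR in RBM6-KO cells did not (-0.71, adjusted p = 0.0924 from edgeR). The block changed no other call of a member. Same-lettered libraries deviated together between genotypes (r = 0.23 untreated and 0.73 after IR) but oppositely between treatments (r = -0.50 in control and -0.66 in RBM6-KO), and whether a letter marks a shared culture or day is not given in the sources used here. The block took the genes called from 952 to 1361, from 189 to 2416, from 881 to 894 and from 884 to 946 in those 4 comparisons. A crossed pairing of A with B, chosen after seeing the data, called 3973 and 6926 genes after IR, and gave RBM6 -0.40 in control cells (adjusted p = 0.0401 from edgeR). The averaged IR value of RBM5, which was about 0, turned to 0.0048 with DESeq2 and 0.031 with no filter. Removing the trend on GC content and length gave RBM10 0.14 for untreated knockout against control and 0.17 averaged, RBM6, RBM5 and RBM10 -0.59, -0.32 and -0.026 after IR in control cells, RBM10 0.025 after IR in RBM6-KO cells, and -0.71, -0.19 and 0.0023 for RBM6, RBM5 and RBM10 averaged. The cause was not tested. Across the settings other than leaving out a library, the number of genes called was 510 to 1361 for untreated knockout against control, 71 to 2416 for the same after IR, 635 to 3973 for IR in control cells, and 840 to 6926 for IR in knockout cells. With each library left out in turn, RBM6 ranged from -0.47 to -0.33 for IR in control cells and from -0.88 to -0.50 for IR in knockout cells. RBM5 ranged from -0.11 to 0.21 for knockout against control after IR and from -0.13 to 0.020 averaged, from -0.28 to 0.051 and from -0.0031 to 0.20 for IR in control and in knockout cells, and from -0.076 to 0.072 averaged. RBM10 ranged from -0.22 to 0.10 for knockout against control untreated, from -0.16 to 0.22 after IR and from -0.10 to 0.091 averaged, from -0.43 to -0.070 for IR in control cells, and from -0.098 to 0.25 for the interaction. A group left with 1 library was assumed to vary like the others.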
